A study of Mus musculus with 18 samples.

Results

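Trimethylation of lysine 4 on histone H3 (H3K4me3) was compared between erythroblasts (ERY) and immature megakaryocytes (iMK) sorted from mouse bone marrow, using 2 chromatin immunoprecipitation (ChIP-seq) libraries of each cell type, 4 of the 18 samples in the series. The members were chosen by mark and cell type from the labels. For each protein-coding gene in GENCODE vM21 on mm10, 21938 in all, the comparison asked whether its promoter carried a peak, how wide that peak was, and which of its transcription start sites (TSSs) carried one. The series also holds 4 H3K27ac libraries of the same cell types, used here as a separate readout, and 10 input libraries, not used here.

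All cells came from adult C57BL6 mice with no genetic change or treatment named in the labels, and the mice were male by the study's methods. Erythroblasts were the Ter119+, CD44+ cells of low forward scatter. Immature megakaryocytes were Ter119-, Sca1- and cKit- and carried CD41 and CD61, the integrin pair encoded by Itga2b and Itgb3. Both sorts removed cells with CD4, CD8, IL7Ra, CD11b, Ly6g or CD45R, and 1 antibody (Millipore) was used for H3K4me3 in all 4 libraries. The labels carry no replicate number, so the numbers 1 and 2 follow the order of submission and pair nothing, and it is not stated there whether they came from separate animals. By the study's methods, replicates came from different groups of mice or from separate sorted portions of the same mice, so p-values measure the spread between these libraries, which may be technical.

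H3K4me3 is laid down by SET-domain methyltransferases that are drawn to unmethylated CpG islands and to initiating RNA polymerase, and it marks the first nucleosomes of active and poised promoters. Housekeeping promoters mostly lie in CpG islands and carry the mark in many cell types, whereas many genes of terminal differentiation, the globin genes among them, start from CpG-poor promoters. Erythroblasts and megakaryocytes descend from a common progenitor and share the factors GATA1, TAL1 and LMO2. KLF1 directs the red cell branch, and FLI1 and RUNX1 act in the platelet branch.

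Any annotated TSS of a gene with 1 kb on either side was its promoter, and overlap of at least 1 bp with a peak made it called in that library. The 2 ERY libraries called 8461 and 6326 genes and the 2 libraries labelled iMK called 7787 and 11585, so iMK replicate 2 stood apart from the other 3. The lists give no read depth, which is unknown, and a gene without a call is one with no listed peak, not one shown to lack the mark. In bulk samples a lower share of cells that carry the mark and less mark per cell cannot be told apart. Calls on the X chromosome, with 948 genes, numbered 171 and 28 in the ERY libraries and 34 and 309 in those labelled iMK, so they differed more between replicates than between the cell types.

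Erythroblast markers were called in the ERY libraries, and few megakaryocyte markers were called in those labelled iMK. Of 10 erythroblast markers, ERY replicates 1 and 2 called 10 and 9 and the libraries labelled iMK called 1 and 2, with summed promoter coverage of 519, 261, 16 and 60 percentage points. Promoter coverage is the percent of the bases within 2.5 kb of any TSS of a gene that lies under peaks. Of 12 megakaryocyte markers, the libraries labelled iMK called 1 and 4 and neither ERY library called any, with summed coverage of 16, 0, 16 and 85.3 points in the order ERY 1, ERY 2, iMK 1 and iMK 2. The platelet receptor and granule genes Gp1ba, Gp1bb, Gp6, Gp9, Pf4 and Ppbp and the tubulin gene Tubb1 had no call in any library. Itga2b, the gene of the CD41 used in the sort, was covered over 0, 0, 0 and 8.46% of its window, so iMK replicate 1 went against its label there. Itgb3, the gene of CD61, had 0, 0, 16 and 31%.

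H3K27ac, from separate libraries, was called at more megakaryocyte markers in ERY than in those labelled iMK. It was called at 5 and 4 of the 12 in the ERY libraries and at 1 and 2 in the others, with summed coverage of 339, 245, 26 and 28.4 points. Gp1ba was covered by H3K27ac over 92.5, 96.4, 0 and 0%, Gp9 over 100, 100, 0 and 0%, and Itga2b over 21.1, 7.40, 0 and 0%, so all 3 were ERY-only for that mark. Itgb3 was iMK-only, at 0, 0, 26 and 27%. Of the 10 erythroblast markers 10 and 10 were called for H3K27ac in ERY and 1 and 1 in the libraries labelled iMK.

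Markers of other cells the gate should have removed were called in the libraries labelled iMK. Of 12 myeloid markers, iMK replicates 1 and 2 called 6 and 11 and the ERY libraries none, with summed coverage of 0, 0, 157 and 632 points, and Mpo was the marker without a call. Itgam, the gene of the CD11b that the sort excluded, was covered over 31.3% and 71.4% in the libraries labelled iMK. Of 7 lymphoid markers only Cd79b and Cd3d were called, both only in iMK replicate 2. Itgam and Cd3d each share their promoter window with another gene. Kit, the gene of the excluded cKit, was called in iMK replicate 2 alone, with 7.37% coverage. The part of such cells in the results below was not tested, and these libraries are called by their label throughout.

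Few promoters were called in erythroblasts alone. In all, 83 genes were called in both ERY libraries and in none labelled iMK (ERY-only, 0.378% of all genes), and the opposite held for 1073 (iMK-only, 4.89%). All 4 libraries called 5398 genes (shared, 24.6%), none called 10168 (46.3%), and the remaining 5216 had other combinations, of which 2186 were called in iMK replicate 2 alone. The number of ERY-only genes rested on iMK replicate 2: without it, 885 genes were called in both ERY libraries and not in iMK replicate 1, whereas leaving out any other library gave 93 to 137. In the same way the iMK-only class held 3259 genes without iMK replicate 1, 2348 without ERY replicate 1 and 1090 without iMK replicate 2. Because a call is binary and 2 libraries against 2 allow 6 arrangements, an exact two-sided test cannot give a p under 0.333, and the classes are described without one.

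Among the 14 gene lists the ERY-only share was highest for red cell membrane and surface genes, as the plot of promoter classes by list shows. Of 29 red cell membrane and surface genes 14 were ERY-only (48.3%), against 0.378% of all genes, and 13 of the 14 were also called in both ERY and neither iMK library for H3K27ac. The 14 included the band 3 anion exchanger Slc4a1, the spectrin Sptb, the ankyrin Ank1, the band 4.2 gene Epb42 and the adducin Add2. Among them too were the dematin Dmtn and the blood group genes Rhd, Rhag, Kel and Ermap. At Dmtn H3K27ac was called in ERY replicate 2 alone. Aqp1, the red cell water channel, was covered over 66.6% and 62.6% in the ERY libraries and 0% in both libraries labelled iMK. Ermap had 57.5% and 54.3% in ERY and 0% in the others. Cldn13 had 71.5% and 36% against 0 and 0%. These 3 were named for the largest coverage differences among the ERY-only genes of the list, so their gap was set by that choice.

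**Figure D1:**
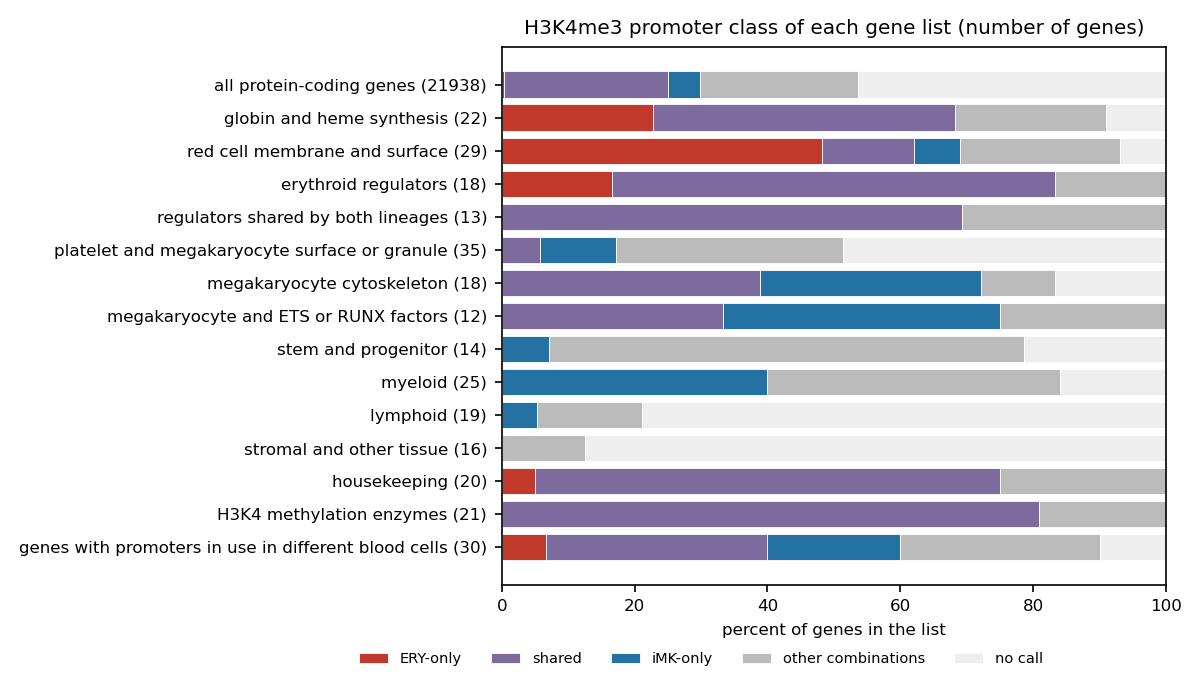
Percent of the genes of each list (bars, with the number of genes found) whose promoters were ERY-only, shared, iMK-only, called in another combination or not called, with all 21938 protein-coding genes on top. Red is longest for red cell membrane and surface genes (14 of 29), and blue for the megakaryocyte and ETS or RUNX factors (5 of 12) and the myeloid list (10 of 25).

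The adult globin genes were ERY-only too, among 5 such genes of 22 on the globin and heme list (22.7%, against 0.378% of all genes). Hbb-bs, an adult beta globin, was covered over 55.4% and 41% in ERY and 0% in both libraries labelled iMK. Hbb-bt, the other adult beta globin, had 64% and 20%, and the theta-like Hbq1b had 82.1% and 22.6%, again with 0% in both others. The alpha globins Hba-a1 and Hba-a2 were covered over 54.9% and 58.4% in ERY replicate 1 and over 18.9% and 15.6% in ERY replicate 2. ERY replicate 1 was thus the higher library at each of these 5 genes. The globin genes come in near-identical copies, and reads shared between Hba-a1 and Hba-a2, between Hbq1a and Hbq1b or between Hbb-bs and Hbb-bt may have been placed in either. The embryonic globins Hbb-y and Hbb-bh1 had no H3K4me3 call in any library, but both were ERY-only for H3K27ac. That mark covered Hbb-y over 100% and 100% and Hbb-bh1 over 88% and 92% in ERY, and neither gene in the libraries labelled iMK.

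Most genes of heme synthesis were instead shared. Of the 22 genes, ERY replicates 1 and 2 called 20 and 17 and the libraries labelled iMK 10 and 13, and the 10 shared ones included Alad, Uros, Urod, Cpox, Ppox and Fech, which encode enzymes of the pathway. Alas2, the erythroid enzyme of the committed step, lies on the X chromosome and was covered over 14.6% in ERY replicate 1 and 0% in the other 3 libraries.

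Most regulators of the red cell lineage were shared. Of 18 erythroid regulators 12 were shared, against 24.6% of all genes, and 3 were ERY-only (16.7%, against 0.378%). Epor, the erythropoietin receptor, was covered over 50.5% and 57.2% in ERY and 0% in both libraries labelled iMK. The ubiquitin ligase genes Trim10 and Trim58 had 53.5% and 48%, and 63.3% and 28%, with 0% in the others. Klf1, the master factor of the red cell branch, was shared, with 68% and 32% in ERY and 16% and 36% in the libraries labelled iMK, values that overlap between the groups. Of 13 regulators used by both lineages none was ERY-only or iMK-only and 9 were shared, Tal1, Nfe2 and Lmo2 among them. Gata1, on the X chromosome, was called only in ERY replicate 1, at 14.5%.

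The iMK-only share was larger for factor and cytoskeleton genes than for platelet surface or granule genes. Of the 12 megakaryocyte and ETS or RUNX factors found in the annotation 5 were iMK-only (41.7%, against 4.89% of all genes) and none ERY-only, and all 5 were iMK-only for H3K27ac as well. Fli1, an ETS factor of megakaryocytes, was covered over 0 and 0% in ERY and 47.9% and 100% in the libraries labelled iMK. Spi1, the myeloid and lymphoid ETS factor PU.1, had 0, 0, 22.4 and 80.2%. Meis1, a homeobox factor of stem cells and megakaryocytes, had 0, 0, 21.7 and 54.1%. All 3 genes had a higher value in iMK replicate 2 than in iMK replicate 1.

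Of 18 megakaryocyte cytoskeleton genes 6 were iMK-only (33.3%, against 4.89% of all genes) and 7 shared. The tropomyosin Tpm4 was covered over 0, 0, 49.2 and 94.6%, and Zyx, the focal adhesion protein zyxin, over 0, 0, 36.2 and 70.4%. Cnn2, a calponin, had 0, 6.29, 46 and 97.6%, with the peak in ERY replicate 2 outside the 1 kb promoter window. Of 35 platelet and megakaryocyte surface or granule genes 4 were iMK-only (11.4%, against 4.89% of all genes). No call in any library was found at 17 of the 35, against 46.3% of all genes. Rasgrp2, an activator of platelet integrins through Rap1, had 0, 0, 19.9 and 39.8%. Plek, the kinase C substrate pleckstrin, had 0, 0, 10.7 and 44.6%. Cd9 and Itgb3 were the others.

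On the myeloid list 10 of 25 genes were iMK-only (40%, against 4.89% of all genes). That share was close to the 41.7% of the mixed list of megakaryocyte and ETS or RUNX factors, which includes Spi1. All 10 were iMK-only for H3K27ac too, and no gene of the list was called in an ERY library. Lyz2, the lysozyme of macrophages and granulocytes, was covered over 59.6% and 100% in the libraries labelled iMK. Cebpa, the granulocyte and monocyte factor, had 59.9% and 95.8%, and Fcer1g, an Fc receptor chain, 47.3% and 90.8%. Fcer1g shares its promoter window with another gene. Stem and progenitor genes differed between the replicates, with 1 and 11 of 14 called. Hoxb4 was the 1 in both, an iMK-only share of 7.14%. Of 19 lymphoid genes Ptprc, which encodes the pan-leukocyte CD45, was iMK-only (5.26%, near the share of all genes). Of 16 stromal and other tissue genes none was.

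Cd44 was iMK-only for H3K4me3, which is read at the promoter and does not measure the CD44 protein used in the sort. It was covered over 0 and 0% in the ERY libraries, which were sorted for CD44 protein, and over 41.4% and 63.1% in the libraries labelled iMK, while H3K27ac was called at it in all 4 H3K27ac libraries. Slc2a1, a glucose transporter gene on the red cell membrane and surface list, was also iMK-only, at 0, 0, 23.1 and 50%. Among 20 housekeeping genes 14 were shared, against 24.6% of all genes. Of 21 genes for H3K4 methylases, demethylases and their partners 17 were shared and none belonged to 1 cell type.

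Without iMK replicate 2 the ERY-only class grew to 4.03% of all genes, against 0.378% with it. ERY-only genes then numbered 20 of 29 membrane genes, 7 of 22 globin and heme genes and 6 of 18 erythroid regulators. They also numbered 6 of the 30 genes with known alternative promoters, 2 of 13 regulators used by both lineages and 2 of 21 genes for H3K4 enzymes. Genes with no call rose from 4 to 15 of 25 on the myeloid list and from 3 to 13 of 14 on the stem and progenitor list. The iMK-only counts were 5 of 12 factors, 6 of 18 cytoskeleton genes, 4 of 35 platelet genes and 10 of 25 myeloid genes, as with all 4 libraries, against 4.97% of all genes. These counts could hardly change, because only the 17 genes called in iMK replicate 1 alone can join the class this way.

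Over all genes, the 8 ERY-only promoters with the largest difference in coverage included Btnl10, Ypel4, Ackr1, Aqp1, Paqr9, Gm9945 and Sowaha, the last pair sharing a window between divergent starts. Btnl10, a butyrophilin-like gene (chr11:58917908-58927158), was covered over 80.7% and 73% in ERY. Ackr1, the Duffy blood group receptor (chr1:173331886-173333750), had 68.6% and 61%. Each had 0% in both libraries labelled iMK, but the genes were picked by this difference and for values that do not overlap. Aqp1 was the 1 of the 8 that stood on a gene list.

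The 8 iMK-only promoters with the largest difference included Marcks, Lyz2, Cebpa, Hivep2, Klf4, Slc9a3r1 and Igsf6. Igsf6 shares its promoter window with another gene. Marcks, an actin-binding kinase C substrate (chr10:37133375-37138920), was covered over 63.6% and 100% in the libraries labelled iMK. Klf4, a factor of monocytes among other cells (chr4:55527143-55532466), had 56.2% and 97.1%. All 8 had 0% in both ERY libraries, but they were picked in the same way. The higher value of the group was that of iMK replicate 2 each time.

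**Figure D2:**
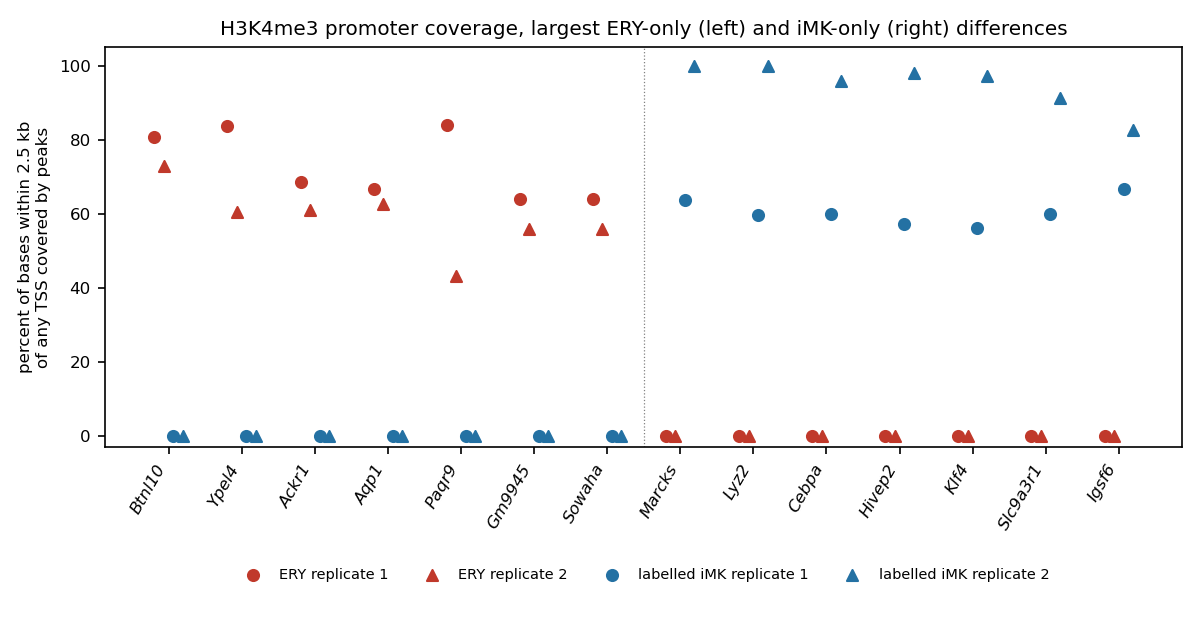
Promoter coverage in percent (vertical axis) of 7 of the 8 ERY-only and 7 of the 8 iMK-only genes with the largest difference, with 1 point for each of the 4 libraries. ERY points lie between 43.1 and 84% on the left and at 0% on the right, and iMK replicate 2 lies above iMK replicate 1 in every iMK-only gene shown.

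None of these differences passed a test across genes. limma's moderated test over the 11961 genes covered in at least 1 library called 0 genes higher in either cell type at a Benjamini-Hochberg adjusted p of 0.05, with 61 genes higher in ERY and 619 higher in iMK at an unadjusted p under 0.05. The difference was 76.8 ± 16.5 points (limma SE) at Btnl10 and -81.8 ± 19.2 at Marcks, ERY minus iMK, both with an adjusted p of 0.793. With quantile normalization limma called 92 and 193 genes. Leaving out a library leaves 1 in its group, whose spread then cannot be measured, so calls from such fits are not counted here.

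ERY-only promoters were poorer in CpG than shared ones. The ratio of observed to expected CpG within 500 bp of the main TSS had a median of 0.429 over the 83 ERY-only genes, 0.678 over the 1073 iMK-only genes, 0.798 over the shared genes, 0.230 over genes with no call and 0.557 over all genes. A ratio under 0.6, taken here as CpG-poor, held for 66.3% of ERY-only, 38.5% of iMK-only, 12.3% of shared and 53.7% of all genes. Hbb-bs had a ratio of 0.104 and Trim10 of 0.173, whereas the iMK-only Cebpa had 0.889 and Marcks 0.915. The main TSS is the one with the most protein-coding transcripts, and it need not lie under the peak. Ank1 had a ratio of 0.992 at its main TSS, which had no call, and 0.445 at its ERY-only start. Without iMK replicate 2 the 885 ERY-only genes had a median of 0.691 and 29.7% were CpG-poor, so the value depended on that library.

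The same held for the GATA motif. The letters AGATAA, on either strand, stood in the 250 bases before the main TSS of 21.7% of ERY-only, 5.68% of iMK-only, 5.17% of shared and 9.01% of all genes, and of 12.6% of genes with no call. The share was 7.34% over the 885 ERY-only genes without iMK replicate 2. The RUNX letters TGTGGT stood in 24.1%, 11.6%, 9.67% and 12.8% of ERY-only, iMK-only, shared and all genes. The ETS letters CCGGAAG stood in 9.64%, 6.24%, 17.8% and 8.27%, and CCNCNCCC, the KLF letters, in 57.8%, 69.0%, 61.8% and 51.1%. A match describes the letters only.

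H3K27ac, measured in separate libraries, had the same direction at most of these promoters. It was ERY-only at 75 of the 83 ERY-only genes, against 2.17% of all genes, and iMK-only at 761 of the 1073 iMK-only genes, against 8.56%, and at none in the opposite direction. Without iMK replicate 2, it was ERY-only at 134 and shared at 679 of the 885 ERY-only genes. Over the shared genes H3K27ac was called in all 4 of its libraries at 5273 of 5398.

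The breadth of a promoter peak was compared over the 5398 shared genes, as the width of the widest peak touching the promoter. Median widths were 2000 and 1400 bp in the ERY libraries and 1400 and 2800 bp in those labelled iMK, so the replicates of a group differed as much as the groups, and each library's log2 widths were centred on their own median before comparison. After centring, both ERY widths exceeded both iMK widths at 1005 genes (18.6%) and the reverse held at 1151 (21.3%). Peaks reached farther on the transcribed side in all 4 libraries. At 200 bp downstream of the TSS 92.6, 83.9, 89.2 and 95.6% of shared promoters lay under a peak, against 83.9, 62.1, 70.3 and 94.4% at 200 bp upstream.

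Broad erythroblast peaks lay on genes of heme synthesis. Of the 10 shared genes on the globin and heme list 8 were wider in both ERY libraries after centring and none in both libraries labelled iMK, against 18.6% of shared genes, and their median difference was 1.33 on the log2 scale against -0.05 over all 5398. Fech, the last enzyme of the pathway, which inserts iron into the ring, had peaks of 6000 and 3000 bp in ERY and 800 and 1600 bp in the libraries labelled iMK. Alad, the second enzyme, had 6200 and 5600 bp against 1600 and 1600 bp. Slc25a37, the mitochondrial iron importer mitoferrin, had 6200 and 5000 bp against 1200 and 4000 bp. Without centring, both ERY peaks were wider than both others at 7 of the 10 genes, these 3 included, against 2.78% of shared genes.

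Of the erythroid regulators 7 of 12 shared genes were wider in both ERY libraries after centring, against 18.6% of shared genes. In both libraries labelled iMK 1 (Klf13) was wider, against 21.3%, and the median difference of the 12 was 0.60. Klf3 had 8800 and 4400 bp against 1400 and 5000 bp, and Bcl2l1, the survival factor Bcl-xL, had 6600 and 1800 bp against 1400 and 2000 bp, so the widths of both genes overlapped between the groups before centring. Without centring 1 of the 12 (Gabarapl2) was wider in both ERY libraries, against 2.78% of shared genes. Xpo7 counted among the 7, with its ERY and iMK peaks at different starts. Housekeeping genes went the other way: 8 of 14 were wider in both libraries labelled iMK, against 21.3% of shared genes, and 1 in both ERY libraries. Actb had 2800 and 1600 bp in ERY and 4600 and 10000 bp in the others, and Gapdh 1400 and 400 bp against 2800 and 3800 bp. Without centring 5 of the 14 were wider in both libraries labelled iMK, against 14.1% of shared genes. Of 17 shared genes for H3K4 enzymes and their partners 3 were wider in ERY and 5 in iMK after centring, near the 18.6% and 21.3% of shared genes.

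limma called 0 of the 5398 genes wider in either cell type at an adjusted p of 0.05, with 299 wider in ERY and 365 wider in iMK at an unadjusted p under 0.05. The smallest adjusted p, 0.0922, was shared by 12 genes. Those with the smallest p toward ERY were Plekha4 and Ppp1r15a, which share 1 peak between divergent starts, then Arhgef12, Fech, Mfhas1, Slc20a1, Dhrs11 and Cdr2. Cdr2 shares its promoter window with another gene. Ppp1r15a, a phosphatase subunit that restores translation after stress, had peaks of 5800, 5200, 800 and 2200 bp, a centred log2 difference of 2.29 ± 0.33 (limma SE). Dhrs11, a dehydrogenase, had 6400, 4800, 400 and 2200 bp and a difference of 2.81 ± 0.46, or 6.99-fold. Slc20a1, a phosphate transporter, had 4800, 3400, 600 and 2000 bp.

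Toward iMK the smallest p belonged to Zbtb7b, Dusp7, Rnf220, Grk2, Atp1b3, Vasp, Nin and Tmem135. Breadth takes the widest peak at any start of a gene, so the peaks compared can lie at different starts. Rnf220 had 3800 and 5400 bp in the libraries labelled iMK at a start without a peak in ERY. Its shared start had 1200, 800, 1000 and 3200 bp, which overlap between the groups. The 4000 bp peak of Zbtb7b in iMK replicate 1 also lay at an iMK-only start, with 2600 bp at the shared one. Zbtb7b, the T helper cell factor ThPOK, had 1200 and 600 bp in ERY and 4000 and 13200 bp in the libraries labelled iMK, a log2 difference of -2.86 ± 0.36. Vasp, an actin regulator first studied in platelets, had 1800, 1000, 3400 and 8800 bp and a difference of -1.78 ± 0.32, with an adjusted p of 0.0972. Grk2, a kinase of activated receptors, had 800, 400, 1800 and 9600 bp. At all of these 16 genes the widths did not overlap between the groups before or after centring, but they were picked by this contrast.

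**Figure D3:**
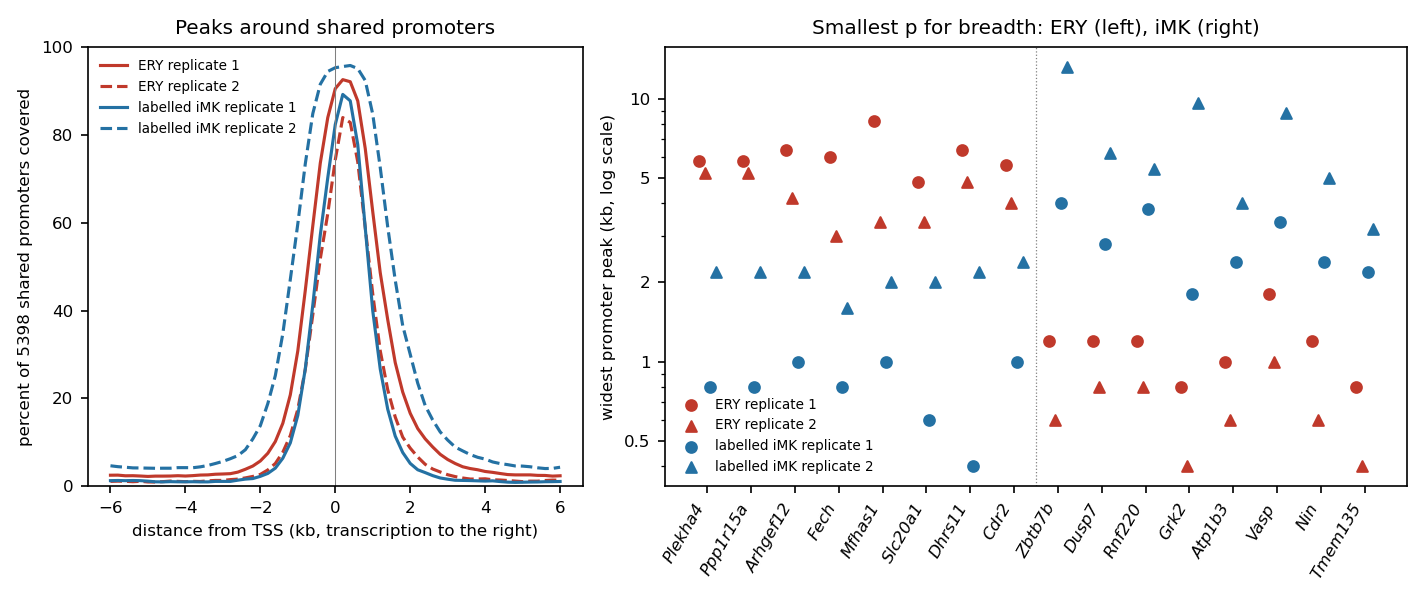
Left, percent of the 5398 shared promoters under a peak (vertical axis) by distance from the TSS in kb, with 1 line per library. Right, width in kb on a log axis of the widest promoter peak of the 16 genes with the smallest p, with 1 point per library, where Zbtb7b reaches 13200 bp in iMK replicate 2 and 600 bp in ERY replicate 2.

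When the covered bases within 5 kb of a TSS replaced the width of the widest peak, limma called 65 genes with more in ERY (1.2% of shared genes) and 28 with more in iMK (0.519%). On the globin and heme list 5 of 10 shared genes rose in ERY, and none in iMK: Alad, Fech, Ppox, Slc25a37 and Uros. Ppox and Uros share their promoter window with another gene. Fech differed by 2.66 ± 0.34 on the log2 scale (adjusted p = 0.00148) and Uros, the uroporphyrinogen III synthase, by 2.09 ± 0.32 (adjusted p = 0.00446). Lmo2 and Tal1, partners in the GATA1 complex, were higher in ERY by 1.23 ± 0.30 and 1.52 ± 0.31 (adjusted p = 0.0491 and 0.0196). Actb and Gapdh were lower in ERY, at -1.36 ± 0.31 and -1.80 ± 0.42 (adjusted p = 0.0385 and 0.0402), as was Zbtb7b at -3.28 ± 0.33. This measure adds the peaks of all starts of a gene, so a second start counts in it.

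Alternative starts were compared over the 5753 genes with TSS groups at least 3 kb apart, 13804 groups in all. A group chains the starts of protein-coding transcripts that lie within 1 kb of each other. Where a gene had a group called in all 4 libraries, in 1581 genes, it mostly had that group alone: 1285 genes had 1 shared group and no call at any other, and 61 had more than 1 shared group. An ERY-only group beside a shared one was found in 25 genes (0.435%), an iMK-only group beside a shared one in 15 (0.261%), and a group of each kind in 1 gene, Xpo7.

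Xpo7, the nuclear exporter exportin 7, was called as shared at the level of the gene although no start of it was shared. Its first group, on the minus strand of chromosome 14, carried no peak in ERY and peaks of 1400 and 3800 bp in the libraries labelled iMK. A second group 58593 bp downstream carried peaks of 4000 and 2000 bp in the ERY libraries and none in the others. The first group lies within 1 kb of another gene's TSS and in CpG-rich sequence, with a ratio of 0.904, and the second had a ratio of 0.143. H3K27ac followed both, iMK-only at the first group and ERY-only at the second. The 250 bases before the second start are given in GRCm38, read 5′ to 3′ on the gene's strand, to show the letters counted above at a start called in ERY alone. In this and the later sequences capitals mark AGATAA and CCNCNCCC, or their reverse complements. The window is chr14:70708036-70708285 on the minus strand and overlaps no annotated exon.
Xpo7 second group, ERY-only: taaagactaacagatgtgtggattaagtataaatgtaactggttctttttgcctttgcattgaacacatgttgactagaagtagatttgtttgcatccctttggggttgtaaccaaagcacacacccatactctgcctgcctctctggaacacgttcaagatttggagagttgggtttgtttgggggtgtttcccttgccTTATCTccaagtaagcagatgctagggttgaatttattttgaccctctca

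The second window of Xpo7 has AGATAA on the opposite strand, starting 50 bases before the TSS, and no CCNCNCCC.

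Lmo2, the bridging protein of the TAL1 and GATA1 complex, was a second gene in which a start was called in ERY only, and the one case among the 8 genes with the widest ERY-only groups where that start was the first. The first group (TSS at 103957986 on the plus strand of chromosome 2) carried peaks of 4200 and 3000 bp in ERY and none in the libraries labelled iMK. The group 11542 bp downstream had 4600, 2000, 2400 and 5200 bp, with overlap between the groups. The CpG ratio was 0.165 at the first group and 0.663 at the second, and H3K27ac was ERY-only at the first and shared at the second. The windows before the starts are chr2:103957736-103957985 and chr2:103969278-103969527.
Lmo2 first group, ERY-only: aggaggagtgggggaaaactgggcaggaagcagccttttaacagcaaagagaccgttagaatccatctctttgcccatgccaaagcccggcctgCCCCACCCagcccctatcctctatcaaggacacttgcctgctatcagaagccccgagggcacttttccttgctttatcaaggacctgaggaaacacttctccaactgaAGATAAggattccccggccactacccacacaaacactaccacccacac
Lmo2 second group, shared: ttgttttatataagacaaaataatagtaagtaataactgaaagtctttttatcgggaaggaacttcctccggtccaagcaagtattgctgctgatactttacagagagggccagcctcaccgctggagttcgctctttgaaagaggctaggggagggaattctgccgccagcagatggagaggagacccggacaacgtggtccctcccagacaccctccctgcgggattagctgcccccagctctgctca

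The window of the ERY-only start of Lmo2 has AGATAA starting 48 bases and CCNCNCCC starting 156 bases before the TSS, and the window of the shared start has neither.

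Fam53b had the widest ERY-only group beside a shared one, 36970 bp downstream of the first start, with peaks of 5000 and 5600 bp in ERY and none in the libraries labelled iMK. Its first group had 2600, 3000, 1800 and 3800 bp, and H3K27ac was called in all 4 libraries at both. The window of the downstream start, shown because it has neither set of letters despite the widest such peak, is chr7:132776917-132777166 on the minus strand.
Fam53b downstream group, ERY-only: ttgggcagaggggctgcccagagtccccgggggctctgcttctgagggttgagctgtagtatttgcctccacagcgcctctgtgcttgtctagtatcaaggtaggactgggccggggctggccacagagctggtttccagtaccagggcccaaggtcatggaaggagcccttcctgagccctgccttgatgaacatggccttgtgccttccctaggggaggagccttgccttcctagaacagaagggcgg

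Other ERY-only starts lay far inside their genes. Arrb1, beta-arrestin 1, had ERY peaks of 3600 and 3400 bp at a start 59157 bp downstream of its first, which had 2000, 1200, 1200 and 3200 bp. Brpf3, a subunit of histone acetyltransferase complexes, had 4200 and 2400 bp at a start 22482 bp downstream, and Tfdp2, a partner of E2F factors, 4000 and 2200 bp at a start 62430 bp downstream. At all 3 starts H3K27ac was ERY-only. Gpr146, a receptor gene, had 3800 and 2800 bp at a start 11622 bp downstream. At Slc25a51 a single peak reached both the shared and the ERY-only group in both ERY libraries, so the starts cannot be told apart there. At Ubac1 this held in ERY replicate 1, whereas ERY replicate 2 had separate peaks of 2600 bp at the shared and 1600 bp at the ERY-only group.

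Genes of the red cell lists were among the 25 as well. Uros had 3800 and 600 bp in ERY, and no peak in the others, at a start 7456 bp downstream of a shared first group with 2400, 2600, 1400 and 2200 bp. Klf3 had 3400 and 1400 bp at a start 8951 bp downstream. Epb41, the membrane skeleton protein 4.1, had 3800 and 1400 bp at a start 3195 bp downstream, and in ERY replicate 1 the same peak reached the shared group.

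**Figure D4:**
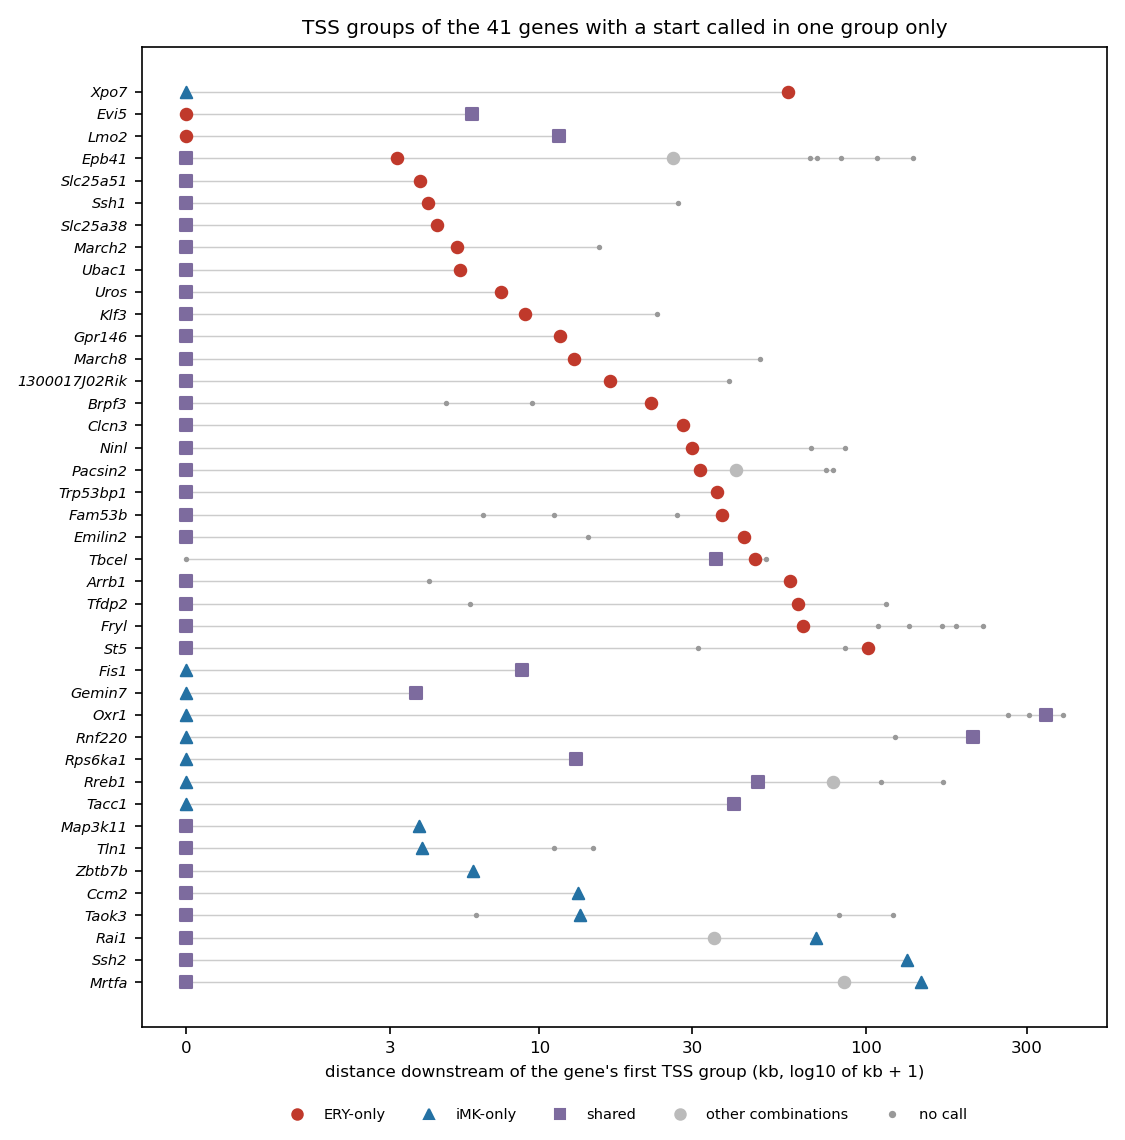
TSS groups of the 41 genes with a start called in 1 cell type beside a shared start, or with 1 of each kind (Xpo7), by distance in kb from the gene's first group on a log10 axis of kb + 1. ERY-only groups (red) lie downstream of the shared group (squares) in 23 of 25 genes, and iMK-only groups (blue) in 8 of 15. Over all genes with more than 1 group, 1395 of 1642 shared groups were the first.

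As a set, the ERY-only starts lay downstream of every shared group of the gene in 23 of 25 cases, Evi5 and Lmo2 being the exceptions. Over all genes with more than 1 group, 1395 of 1642 shared groups were the first. A start beside a shared group thus mostly lies downstream, whatever its class. Of these starts 24 of 25 were CpG-poor, against 3 of the 25 shared groups beside them and 74.1% of all groups. The median ratio was 0.239 at the ERY-only starts and 0.796 at their shared partners. Groups with no call in any library were close to the ERY-only starts, with 93.1% CpG-poor and a median of 0.231. AGATAA stood before 11 of 25 ERY-only starts and 1 of 25 shared partners, against 11.5% of all groups, and CCNCNCCC before 12 and 17. TATAAA stood before none of the 25, against 12.9% of all groups. H3K27ac was ERY-only at 19 (against 3.56% of all groups), shared at 4 and called in other combinations at 2.

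These shares changed without iMK replicate 2. The number of genes rose from 25 to 54, with 55 ERY-only groups, of which 37 were CpG-poor (67.3%) and 13 had AGATAA (23.6%), and H3K27ac was ERY-only at 21 and shared at 31. The starts added in this way thus differed from the 25 in each of these features. Of the 25 genes, 10 stayed under every alternative definition tried: Arrb1, Brpf3, Clcn3, Evi5, Fam53b, Fryl, Klf3, Lmo2, Ninl and Uros.

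The iMK-only starts were less uniform. Of 15, 8 lay downstream of the shared group and 7 were the first start, 7 were CpG-poor, none had AGATAA before it, and H3K27ac was iMK-only at 7 (against 6.64% of all groups). Mrtfa, a coactivator of SRF also called Mkl1 and known in megakaryocyte maturation, had peaks of 1600 and 6000 bp in the libraries labelled iMK, and none in ERY, at a start 145211 bp downstream of a shared group with 1400, 600, 1800 and 3000 bp. Ssh2, a phosphatase of the actin regulator cofilin, had 1800 and 3000 bp at a start 131995 bp downstream. H3K27ac was iMK-only at both. The window of the Mrtfa start, shown as the counterpart of the ERY-only windows, is chr15:81045547-81045796 on the minus strand, and neither set of letters is in it.
Mrtfa downstream group, iMK-only: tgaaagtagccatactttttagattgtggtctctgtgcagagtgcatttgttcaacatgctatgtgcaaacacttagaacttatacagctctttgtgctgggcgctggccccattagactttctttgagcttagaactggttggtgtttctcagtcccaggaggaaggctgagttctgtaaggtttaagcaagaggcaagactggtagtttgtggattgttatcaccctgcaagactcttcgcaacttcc

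Rnf220, a ubiquitin ligase, was marked at its first group by peaks of 3800 and 5400 bp in the libraries labelled iMK alone, and at a group 207606 bp downstream by 1200, 800, 1000 and 3200 bp in all 4. Ccm2, an adaptor of endothelial junctions, and Taok3, a kinase, had iMK-only starts 13296 and 13459 bp downstream of shared ones. At Tln1 and Map3k11 a single peak reached both groups in both libraries labelled iMK. At Zbtb7b this held in iMK replicate 2, whereas iMK replicate 1 had separate peaks of 2600 bp at the shared and 4000 bp at the iMK-only group. Genes kept under every alternative definition were Mrtfa, Rps6ka1, Ssh2 and Tacc1.

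**Figure D5:**
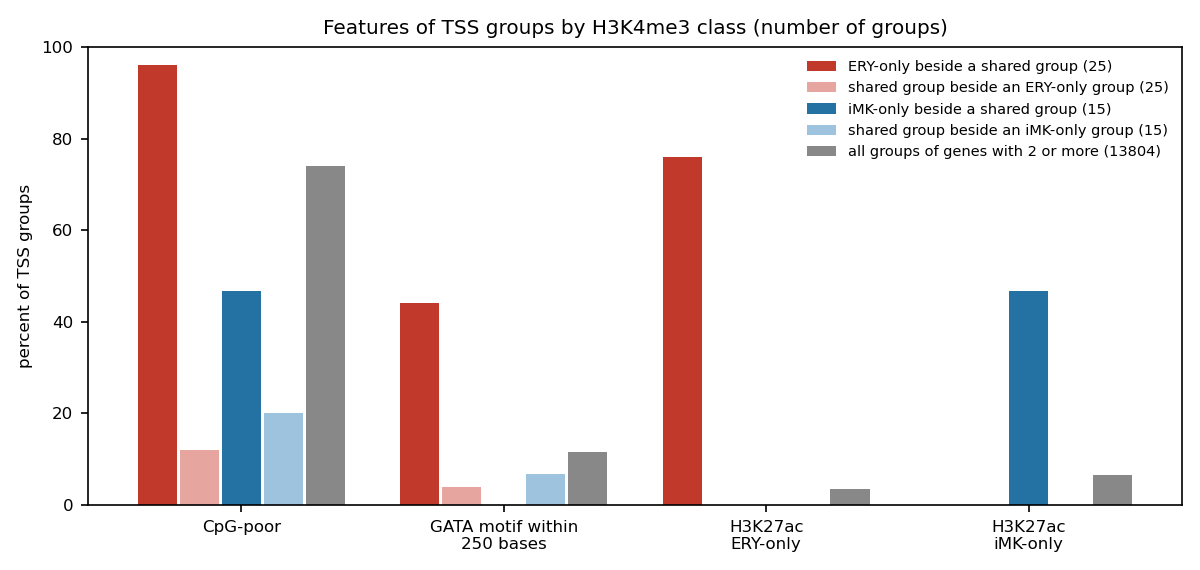
Percent of TSS groups (bars) that are CpG-poor, carry the GATA letters in the 250 bases before the start, or have H3K27ac called in 1 cell type only, for groups called in 1 cell type, the shared groups of the same genes, and all 13804 groups. The ERY-only groups reach 96% CpG-poor, 44.0% with the letters and 76% with ERY-only H3K27ac, and the shared groups beside them 12, 4.0 and 0%. Groups with no call in any library, not drawn, were CpG-poor in 93.1% of cases.

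Of 30 genes known to use different promoters in different blood cells, 2 were ERY-only (6.67%, against 0.378% of all genes) and 6 iMK-only (20%, against 4.89%). Of the 17 with more than 1 TSS group, 2 (Epb41 and Lmo2, both described above) had an ERY-only start beside a shared one, against 0.435% of genes, and none had such an iMK-only start. Of the 30, 19 and 16 were called in the ERY libraries and 18 and 24 in those labelled iMK. Ank1 was called at its second group, 60255 bp downstream of the first, with 6800 and 3600 bp in ERY and no peak in the others, and the third group was called in ERY replicate 1 alone. Add2 was called in ERY only at the third of its groups, with 3400 and 2000 bp, a CpG ratio of 0.119 and AGATAA before the start.

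On the iMK side Runx3 was called at its second group, with 800 and 3600 bp, and Mitf at its first, with 2000 and 2400 bp, with no peak in ERY at either gene. Gata2 had peaks of 800 and 3000 bp at its 2 groups in iMK replicate 2 alone. Foxp1 had a shared first group and 3 further groups called in iMK replicate 2 alone. Slc11a2 and Tpm1 were called in all 4 libraries at 1 group each, and Abcg2, Nfix and Itga6 only in combinations that split a pair of replicates. Rasgrp3 had no call at any start.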

How the data were processed

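H3K4me3 peak lists of 4 libraries were analysed, with the H3K27ac lists of 4 others as a separate readout. The authors called peaks in each library on its own, and the deposited files give for each peak its coordinates on mm10, a fold (the ratio of ChIP over control signal), a p-value and a q-value. The submitters' processing notes name Bowtie 1.0.0 and SICER 1.1, while MACS is the caller in the study's general methods. Peak edges lay on steps of 200 bp, so widths are multiples of it. Broad calling joins neighbouring enriched windows, so a list's length and its peak widths depend on the depth and background of a library and of its control. Only peak positions were used in the main comparisons, with the q-value and fold used in alternatives.

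Gene models were GENCODE vM21, and sequence was GRCm38, the assembly that mm10 names, read with pysam 0.24.0. Coordinates are counted from 1. Promoter coverage, and log2 widths centred on each library's median, were compared with limma 3.58.1 (moderated test with trend, no covariates, two-sided, Benjamini-Hochberg over all genes fitted, threshold 0.05) in R 4.3.3. Where leaving out a library left 1 in a group, it was assumed to vary like the other group. The scripts were tested on simulated data. The members, the 14 gene lists (273 of 274 names found, Mkl1 being listed as Mrtfa in the annotation) and the tests were chosen with earlier results of these data known. Genes were named by a rule: up to 3 per list and direction by difference in coverage, 8 per direction over all genes by coverage and by p for breadth, the genes with a start called in 1 cell type up to 8 per direction by peak width, and the sort markers and multi-promoter genes. Other list members are named as examples of their counts, and Itgam and Kit were singled out after their values were seen. Alternatives were other windows, overlaps, q-value limits, equal numbers of top peaks, quantile normalization, other TSS definitions and each library left out. A few genes and a sequence that the rule would name are not reported here.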

Additional observations from a re-analysis of the deposited data

How the results depend on the processing

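No paired analysis was possible because the labels number no replicates. With equal numbers of top peaks per library 545 genes were ERY-only in place of 83, and leaving out 1 library gave 93 to 885. The iMK-only class held 1080 to 3259 genes with 1 library left out, and between 935 and 1071 under the other alternatives. Shared genes numbered 4302 to 5518 with all 4 libraries and 5405 to 6673 with 3. For coverage, quantile normalization gave 92 calls toward ERY and 193 toward iMK where limma otherwise gave 0, and leaving out 1 library gave 0 to 62 and 0 to 3953. For breadth, covered bases within 5 kb of a TSS gave 65 and 28 calls, and every other alternative with all 4 libraries gave 0. Without centring 23 genes toward ERY and 86 toward iMK had an unadjusted p under 0.05, in place of 299 and 365. Genes with an ERY-only start beside a shared one numbered 26 to 54 with 1 library left out and 21 to 36 under the other alternatives. Genes with such an iMK-only start numbered 27 with the TSSs of all transcripts, 15 to 139 with 1 library left out, and 11 to 16 otherwise. Genes with a start of each kind numbered 3 with the TSSs of all transcripts, 2 with a q-value limit of 1e-05, 6 with equal numbers of top peaks and 2 to 9 with 1 library left out, Xpo7 being among them each time. The causes were not tested. The coverage difference, ERY minus iMK in percentage points, changed sign at Itga2b (0.632) and Itga6 (0.805) with quantile normalization, at Epb41 without ERY replicate 1 (-1.48) or iMK replicate 1 (-1.23), where 1 library left out gave -1.48 to 6.90, and at Tpm1 with a 1 kb window (-5.41), without ERY replicate 1 (-4.50) or without iMK replicate 1 (-1.93), where 1 library left out gave -4.50 to 4.50. None of these 4 genes was called. The lists hold no depth, so a gene without a peak in the smaller lists may lie under the threshold.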

Other observations

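The widest promoter peaks of the shared genes, taken as the top 5% in each library after their values were seen, were compared between the cell types. The set held 118 genes in both ERY libraries and 91 in both libraries labelled iMK, with 19 in all 4, or 16.1% of the first and 20.9% of the second, where the sets were 2.19% and 1.69% of all shared genes. Setd1b, an H3K4 methyltransferase itself, had peaks of 9600 and 6400 bp in ERY and 5200 and 11200 bp in the libraries labelled iMK. Bcl11a, the repressor of fetal globin genes, had 8200, 6800, 3400 and 7800 bp, and Myc, a factor of growth and proliferation, was also among the 19. The chromatin genes Arid1a, Brd2, Cbx3 and Jarid2 were on the same list, as was Cd47, which protects red cells from phagocytosis. Some of the 19 have the same peak, such as Brd2 with H2-DMa and Cbx3 with Hnrnpa2b1. No test was made of this overlap.

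The cell cycle inhibitor genes Cdkn2c and Cdkn2d were in the ERY set and not in the other. Cdkn2c had 6400 and 5200 bp in ERY against 2000 and 3800 bp, and Cdkn2d had 5400 and 3800 bp against 1600 and 6600 bp. At Cdkn2c both ERY peaks were wider than both others, and at Cdkn2d the groups overlapped. Dyrk3, a kinase of late erythroid cells, had 5400 and 4400 bp against 1600 and 3600 bp.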
